A study of Mus musculus with 19 samples.

Results

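*Foxp1*, *Foxp2*, *Bcl11b*, *Tbr1*, *Cux2*, *Fezf2*, *Neurod6* and *Rorb* encode transcription factors that mark neurons of the forebrain. They were picked by gene name from the rows of the deposited count table, through the GENCODE M21 names of its Ensembl identifiers, and make up 8 of its 41128 genes. All 8 passed the filter on low counts, among 16841 genes tested. RNA sequencing covered the striatum, the prefrontal cortex and the cerebellum of 3-month-old C57BL/6 mice, either SCA17 knock-in (KI) or age-matched wild type (WT), in 19 libraries. Each region had 3 WT and 3 KI libraries, apart from the cerebellum with 3 WT and 4 KI libraries. In the KI mice the TATA box-binding protein TBP is made with a lengthened run of glutamines, from a germline allele obtained by a cross of mice with a floxed allele to EIIa-Cre mice, whose Cre acts in the early embryo. The knock-in is therefore not restricted to neurons or to a region. The comparisons asked how the 8 genes are distributed over the 3 regions in WT mice, and whether their RNA differed between KI and WT mice within a region.

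The striatum is built mainly of inhibitory projection neurons that use GABA, and the cortex mainly of glutamatergic neurons stacked in layers. *Bcl11b*, *Foxp1* and *Foxp2* take part in making and keeping striatal projection neurons, and each is also used by some cortical neurons. *Tbr1* and *Fezf2* set the identity of deep-layer cortical neurons, *Cux2* of upper-layer neurons and *Rorb* of neurons in the middle layer that receives thalamic input, whereas *Neurod6* is shared by most cortical glutamatergic neurons. In bulk tissue, a lower level can come from fewer cells of a type or from less RNA in each cell, and these cannot be told apart here.

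Promoter sequences are shown because the altered protein of the KI mice is the one that binds the TATA box. RefSeq promoter windows on GRCm38.p6 were found for 7 of the 8 genes, in 11 windows since some genes have several start sites, and the 250 bases before each start were searched on both strands. The motifs were TATAAA, the TATA box; GGGCGG, the GC box bound by SP1; and CCAAT, the CCAAT box. TATAAA was found in 1 of the 11 windows, against 12.4% of 32851 promoter windows of this length in the table. GGGCGG was found in 5 windows, against 32.7% of all, and CCAAT in 3, against 33.8%. Some windows lie partly or wholly in annotated exons. These took up all 250 bases of the *Tbr1* window and 169 of a *Foxp1* window, each with 1 GC box. They also took up 188 of the *Bcl11b* window, which had no match. No match overlapped another. Capitals mark the matches, which read CCGCCC or ATTGG where a GC or CCAAT box lies on the other strand, in 4 windows, which were chosen to show the only TATAAA match and 1 gene each of the striatal, middle-layer and general cortical kind. They lie at chr6:99028312-99028548 for *Foxp1*, chr5:122047887-122048075 for *Cux2*, chr6:55681264-55681513 for *Neurod6* and chr19:19111197-19111446 for *Rorb*, all on the minus strand and written in the direction of the gene.
Foxp1: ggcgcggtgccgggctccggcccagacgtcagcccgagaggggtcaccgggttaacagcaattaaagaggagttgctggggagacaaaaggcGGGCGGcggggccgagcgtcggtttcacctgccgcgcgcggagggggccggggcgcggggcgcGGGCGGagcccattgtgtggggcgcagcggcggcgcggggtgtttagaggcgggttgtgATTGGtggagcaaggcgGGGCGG
Cux2: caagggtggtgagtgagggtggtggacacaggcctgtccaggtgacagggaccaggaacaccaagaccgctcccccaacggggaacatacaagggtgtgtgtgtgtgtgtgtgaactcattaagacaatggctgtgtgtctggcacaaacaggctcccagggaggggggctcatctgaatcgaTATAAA
Neurod6: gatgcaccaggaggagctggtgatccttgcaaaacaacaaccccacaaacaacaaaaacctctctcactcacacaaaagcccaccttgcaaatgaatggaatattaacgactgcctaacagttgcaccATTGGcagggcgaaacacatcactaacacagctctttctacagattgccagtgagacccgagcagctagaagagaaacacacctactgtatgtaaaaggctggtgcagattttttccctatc
Rorb: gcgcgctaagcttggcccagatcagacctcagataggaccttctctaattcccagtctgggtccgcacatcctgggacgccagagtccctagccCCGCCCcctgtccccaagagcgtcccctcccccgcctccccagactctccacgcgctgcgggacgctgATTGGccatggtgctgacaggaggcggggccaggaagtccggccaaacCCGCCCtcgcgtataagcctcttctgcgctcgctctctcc
The *Foxp1* and *Cux2* stretches were ended at their last match, at -14 and -62 from the start, since their windows reach into annotated exons. These exons take up 15 bases of the *Foxp1* and 66 of the *Cux2* window. That is more than the bases left off, so some exon bases lie in each stretch. The TATAAA of *Cux2* may be among them. The TATAAA of *Cux2* sat at -67 to -62, in a window with 55.2% G and C bases. The *Foxp1* window held 3 GC boxes and 74.0% G and C, the *Rorb* window 2 GC boxes and 66.0%, and the *Neurod6* window none and 46.0%. *Foxp1*, *Cux2* and *Rorb* have further start sites whose windows differ, so a match belongs to 1 start and not to the gene as a whole.

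The genes lie, by GENCODE M21 on GRCm38, at chr6:98925338-99522721 (*Foxp1*, ENSMUSG00000030067), chr6:14901349-15441977 (*Foxp2*, ENSMUSG00000029563), chr12:107910403-108003602 (*Bcl11b*, ENSMUSG00000048251), chr2:61802930-61814114 (*Tbr1*, ENSMUSG00000035033), chr5:121856366-122050102 (*Cux2*, ENSMUSG00000042589), chr14:12342094-12348189 (*Fezf2*, ENSMUSG00000021743), chr6:55677822-55681263 (*Neurod6*, ENSMUSG00000037984) and chr19:18930605-19111196 (*Rorb*, ENSMUSG00000036192). All are protein-coding, and their merged exons span 2150 bases in *Neurod6* to 16346 bases in *Foxp2*. Exons of *Foxp1* overlap those of *Gm20696* on the same strand, which had at most 278 counts in a library. *Foxp1* counts could therefore have been affected by that gene. None of the other 7 overlaps an annotated exon of another gene.

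Library totals ran from 10639110 to 17431284 counts. Levels are given as CPM, each gene's share of its library's counts scaled to a fixed library size, after TMM scaling of the library sizes. The region labels matched their markers: the summed level of 11 striatal projection neuron genes was 5880 to 12500 CPM in the striatum and at most 1280 elsewhere, and that of 8 cortical glutamatergic genes was 1740 to 2790 CPM in the prefrontal cortex and at most 1250 elsewhere. Some libraries stood apart. Prefrontal cortex WT library 3 held 6 olfactory bulb genes at a sum of 645 CPM, against 23.5 to 63.7 in the other 5 libraries of that region, and cerebellum WT library 1 and KI library 3 held choroid plexus genes at 1970 and 4960 CPM, against 12.0 to 35.0 in the other 5. Choroid plexus genes also ran from 1560 to 9020 CPM over the striatal libraries of both genotypes, lowest in WT library 3. Cerebellum KI library 2 had *Tcf7l2*, a gene of thalamic neurons named after its values were seen, at 40.4 CPM, against 8.34 to 13.9 in the other cerebellar libraries, while its sum over 6 thalamic genes was 246 CPM against 171 to 230 CPM in the others. *Tbp* itself was at 40.8 CPM in KI and 44.4 in WT striatum, 33.7 and 37.4 in prefrontal cortex and 52.9 and 58.5 in cerebellum, and was not called in any region. Read counts do not show the length of the repeat, so they do not check the genotype labels.

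In WT mice the 8 genes split into 3 that were higher in the striatum and 5 that were higher in the prefrontal cortex. All 8 passed the test between these regions (quasi-likelihood test in edgeR, adjusted by Benjamini-Hochberg over all tested genes, threshold 0.05), where 30.5% of all tested genes did so, 14.0% higher in striatum and 16.4% lower. In each of the 8, the 3 striatal WT libraries lay entirely above or below the 3 prefrontal cortex WT libraries, against 41.8% of all tested genes. Given that prefrontal cortex WT library 3 stood apart, the comparison was repeated without it and the 3 cerebellar libraries named above, a choice made after seeing the data, and again all 8 passed.

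*Bcl11b*, a zinc-finger repressor also known as CTIP2, was the striatal gene with the widest range over regions. Its WT striatal libraries had 383, 361 and 333 CPM, those of the prefrontal cortex 68.5, 55.6 and 95.3 CPM, and those of the cerebellum 1.09, 1.44 and 1.21 CPM, or 15 to 22 counts. The 3 regions thus did not overlap. The log2 fold change was 2.30 (SE 0.286, 95% interval 1.69 to 2.90) for striatum over prefrontal cortex, 8.16 (SE 0.418) for striatum over cerebellum and 5.86 (SE 0.405) for prefrontal cortex over cerebellum, with adjusted p of 1.26e-05, 6.57e-11 and 3.26e-09 by edgeR.

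*Foxp1*, a forkhead repressor, had 351, 384 and 364 CPM in WT striatum, 112, 119 and 84.6 CPM in prefrontal cortex and 26.4, 27.0 and 28.9 CPM in cerebellum. Each step down was larger than the spread of the libraries. It was 1.80 log2 units from striatum to prefrontal cortex (SE 0.188, edgeR adjusted p = 2.34e-06) and 1.94 from prefrontal cortex to cerebellum (SE 0.195, adjusted p = 3.19e-07).

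*Foxp2*, the close relative of *Foxp1* that is known from an inherited speech disorder and is also used by Purkinje cells of the cerebellum, had 112, 116 and 130 CPM in WT striatum. Prefrontal cortex gave 14.3, 17.4 and 30.5 CPM and cerebellum 12.7, 15.5 and 13.3 CPM. The striatum stood above both other regions, by 2.52 log2 units over prefrontal cortex (SE 0.356, edgeR adjusted p = 4.4e-05) and 3.11 over cerebellum (SE 0.368, adjusted p = 1.76e-06). Prefrontal cortex and cerebellum overlapped, and their difference of 0.59 (95% interval -0.17 to 1.34) was not called (edgeR adjusted p = 0.182). Without prefrontal cortex WT library 3, the library with olfactory bulb genes and the highest *Foxp2* level of the 3, it was 0.20 (edgeR adjusted p = 0.685).

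Among the cortical genes, *Neurod6* showed the largest log2 difference between prefrontal cortex and striatum. This basic helix-loop-helix factor of glutamatergic neurons had 142, 130 and 83.4 CPM in WT prefrontal cortex, 2.07, 1.41 and 14.7 CPM in striatum and 8.87, 7.73 and 8.82 CPM in cerebellum. Striatal WT library 3 thus stood above the other 2 striatal WT libraries. The log2 fold change of striatum over prefrontal cortex was -4.31 (SE 0.574, 95% interval -5.52 to -3.10, edgeR adjusted p = 2.53e-05), and -6.06 (SE 0.428, adjusted p = 1.08e-07) without that library. Striatum and cerebellum were not told apart (-0.50, 95% interval -1.70 to 0.69, edgeR adjusted p = 0.469), but without striatal WT library 3 the striatum was called lower, by -2.25 (SE 0.417, adjusted p = 0.000291).

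*Tbr1*, a T-box factor of neurons that project from the deep cortex to the thalamus, had 149, 150 and 93.6 CPM in WT prefrontal cortex. Its striatal WT libraries had 5.81, 0.669 and 22.6 CPM, and the cerebellum 0.900, 0.328 and 0.566 CPM, or 5 to 14 counts. Library 3 was again the highest of the striatum and the lowest of the prefrontal cortex. Striatum was below prefrontal cortex by -3.77 log2 units (SE 0.636, edgeR adjusted p = 0.000248). Without striatal WT library 3 this value was -5.29 (edgeR adjusted p = 7.08e-06). No call against the cerebellum is given for *Tbr1*, which passed the filter on low counts only through forebrain libraries. There, 1 striatal library lay within the range of the cerebellum. *Fezf2*, a zinc-finger factor that directs deep-layer neurons to project below the cortex, had 39.2, 41.5 and 27.9 CPM in prefrontal cortex and 2.47, 2.16 and 7.42 CPM in striatum. That difference was -3.18 (SE 0.403, edgeR adjusted p = 1.53e-05), and -3.95 (adjusted p = 1.26e-06) without striatal WT library 3. The 3 WT cerebellar libraries held 0, 2 and 2 *Fezf2* counts, so no fold change against them is given.

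*Cux2*, a homeodomain factor of upper-layer neurons, and *Rorb*, a nuclear receptor of the middle layer, differed less between regions. *Cux2* had 44.2, 51.2 and 34.1 CPM in WT prefrontal cortex, 16.1, 17.8 and 17.3 CPM in cerebellum and 7.08, 4.83 and 11.8 CPM in striatum. It was the only gene of the 8 that was called lower in striatum than in cerebellum, at -1.11 log2 units (SE 0.263, edgeR adjusted p = 0.00173), beside -2.45 against prefrontal cortex (SE 0.266, adjusted p = 3.38e-06). *Rorb* had 59.3, 74.1 and 43.4 CPM in prefrontal cortex, 24.8, 27.8 and 27.8 CPM in striatum and 15.5, 15.0 and 17.0 CPM in cerebellum. Its 3 regions did not overlap, and the striatum differed by -1.14 from prefrontal cortex (SE 0.237, edgeR adjusted p = 0.00149) and by 0.76 from cerebellum (SE 0.241, adjusted p = 0.013).

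*Fezf2* and *Tbr1* passed the filter only through the forebrain libraries and are left out of the calls given here against the WT cerebellum. Of the other genes, *Foxp1*, *Bcl11b*, *Cux2*, *Neurod6* and *Rorb* were called higher in prefrontal cortex, and *Foxp2* was not called. In striatum *Foxp1*, *Foxp2*, *Bcl11b* and *Rorb* were called higher and *Cux2* lower, and *Neurod6* was not called. The shares of all tested genes called were 52.0% for prefrontal cortex and 56.5% for striatum, and higher calls made up 26.9% and 28.7%. Among the same genes, the libraries lay apart in all but *Foxp2* between prefrontal cortex and cerebellum and in all but *Neurod6* between striatum and cerebellum. They did so in 59.1% and 63.9% of all tested genes.

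**Figure D1:**
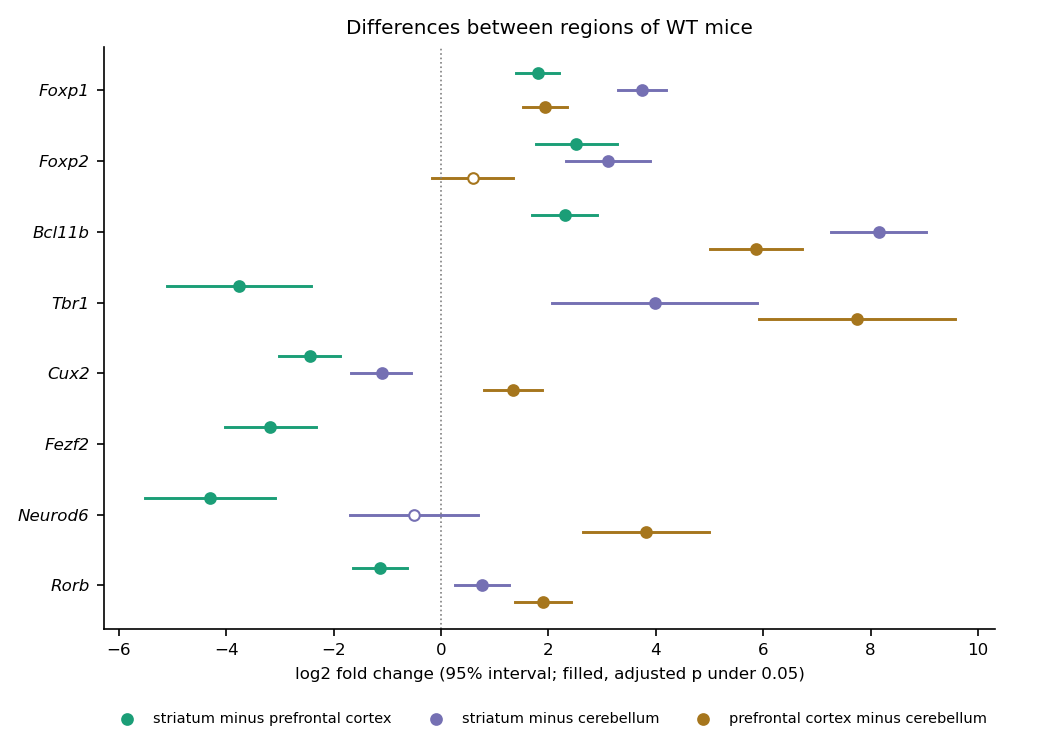
Log2 fold changes between regions of WT mice for the 8 genes, with 95% intervals from the edgeR fit; filled points passed adjusted p 0.05. *Foxp1*, *Foxp2* and *Bcl11b* lie right of 0 for striatum minus prefrontal cortex and the other 5 genes left of it, and *Fezf2* has no value against the cerebellum, where it had at most 2 counts in a WT library. *Tbr1* is drawn against the cerebellum, but it passed the filter on low counts only through forebrain libraries, so those points are not read as calls.

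Compared per length of merged exon, *Bcl11b* led in WT striatum at 44.3 ± 3.14 CPM per kb (SD, n = 3), followed by *Foxp1* at 26.7 ± 1.22 and *Foxp2* at 7.31 ± 0.584. The 5 cortical genes followed at 0.785 to 2.82 CPM per kb, with SDs up to 3.48. Among them *Rorb*, at 2.42 ± 0.158, stood above *Cux2*, at 0.785 ± 0.354, while adjacent genes in their order lay within each other's spread. In WT prefrontal cortex *Neurod6* led at 55.2 ± 14.5 CPM per kb, then *Tbr1* at 23.9 ± 5.89, *Fezf2* at 11.9 ± 2.39, *Bcl11b* at 9.01 ± 2.5, *Foxp1* at 7.66 ± 1.32, *Rorb* at 5.32 ± 1.39, *Cux2* at 4.28 ± 0.854 and *Foxp2* at 1.27 ± 0.526. Adjacent genes in the order from *Fezf2* to *Cux2* lay within each other's spread, whereas *Neurod6*, *Tbr1* and *Foxp2* stood clear. In WT cerebellum no member was above 3.94 CPM per kb, the level of *Neurod6*, and *Bcl11b*, *Tbr1* and *Fezf2* were at 0.154, 0.109 and 0.032. Among the 16733 tested genes with a known exon length, these per-length levels put *Bcl11b* in striatum at percentile 92.8 and *Neurod6* in prefrontal cortex at 94.3, while *Bcl11b* in cerebellum was at 8.08.

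Several close relatives of the 8 genes had their highest level in another region. Of 10 paralogs, 9 were tested, and 7 were called lower in WT striatum and 5 lower in WT prefrontal cortex than in WT cerebellum. Of all tested genes, 27.8% were called lower in striatum and 25.1% in prefrontal cortex. *Neurod1*, which drives granule cell formation in the cerebellum, had a WT mean of 447 CPM there, 11.7 in prefrontal cortex and 0.747 in striatum, so that *Neurod6* per kb was 10.8 to 18.2 times *Neurod1* in prefrontal cortex and 0.0221 to 0.0287 times in cerebellum. *Rora*, the relative of *Rorb* that Purkinje cells depend on, was at 502 CPM in WT cerebellum, 128 in prefrontal cortex and 86.0 in striatum. *Bcl11a* was lower in striatum than in prefrontal cortex (-0.71 log2 units, SE 0.146, edgeR adjusted p = 0.00132), in the direction opposite to *Bcl11b*, and *Bcl11b* per kb was 8.35 to 12.7 times *Bcl11a* in WT striatum and 0.975 to 1.58 times in WT prefrontal cortex. *Cux1* did not differ between these regions by the test (-0.14, SE 0.11, edgeR adjusted p = 0.389), while *Cux2* per kb was 0.105 to 0.264 times *Cux1* in WT striatum and 0.637 to 0.991 times in prefrontal cortex. *Foxp4*, the third forkhead relative, was at 11.6 CPM in WT striatum, 16.3 in prefrontal cortex and 25.1 in cerebellum, an order opposite to that of *Foxp1*.

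Lists of other genes with the same roles gave the wider setting. Of all tested genes, 14.0% were called higher and 16.4% lower in WT striatum than in WT prefrontal cortex. Of 18 other striatal transcription factors, 11 were higher and 1 was lower in WT striatum than in prefrontal cortex, with a median of 1.41 log2 units against -0.00 for all tested genes. *Ebf1*, *Zfp521*, *Rarb* and *Rxrg* led, at 1.88, 1.52, 3.77 and 4.18. Of 18 other cortical transcription factors, 13 were lower and 3 were higher in striatum, at a median of -1.04, led by *Mef2c* at -1.94, *Bhlhe22* at -4.65, *Sox5* at -1.58 and, in the other direction, *Tle4* at 1.27. Of 12 known targets and partners of the 8 genes, 5 were higher and 5 lower, among them *Ephb1*, a guidance receptor, at 1.19. Of 15 genes that mark cortical layers, 2 were higher, near the share of all tested genes, and 6 were lower. *Syt6*, a deep-layer gene, was higher in striatum at 2.15 while *Rasgrf2*, an upper-layer gene, was lower at -2.20. Of 15 cerebellar transcription factors, all 15 were lower in each forebrain region than in WT cerebellum, led by *En2* and *Lhx1*. Lower calls made up 27.8% of all tested genes for striatum and 25.1% for prefrontal cortex. The list was chosen for its cerebellar role, and 3 of the 15 had 0 counts in all WT striatal libraries and 3 in all WT prefrontal cortex libraries. The count of 15 is therefore no test of these factors.

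Genes with the most similar profile over all 19 libraries were sought by the mean absolute difference in centred log2 CPM, which a shared regional pattern dominates. They were *Smpd3*, *Sh2d5* and *Rgs2* for *Foxp1* at 0.19 to 0.24 log2 units, *Pou3f4*, *Klhl13* and *Pcp4l1* for *Foxp2* at 0.20 to 0.28, and *Dlx5*, *Necab2* and *Kcnip2* for *Bcl11b* at 0.36 to 0.41. *Rtn4rl2* and *Bmp3* were among the nearest to *Tbr1* at 0.44 and 0.56, *Stx1a* and *Crhbp* among those to *Fezf2* at 0.42 and 0.46, and *Cck*, *Adra1d* and *Kcnk4* were nearest to *Neurod6* at 0.38 to 0.54. *Shank1*, *Olfm1* and *Ncald* were nearest to *Cux2* at 0.17 to 0.22, and *Cacna2d1*, *Slc39a10* and *Atxn7l3* to *Rorb* at 0.18 to 0.19. Over the 9 WT libraries alone, 2 of the 3 genes stayed for *Foxp1* and *Neurod6*, 1 for *Cux2* and *Rorb*, and 0 for *Foxp2* and *Bcl11b*.

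**Figure D2:**
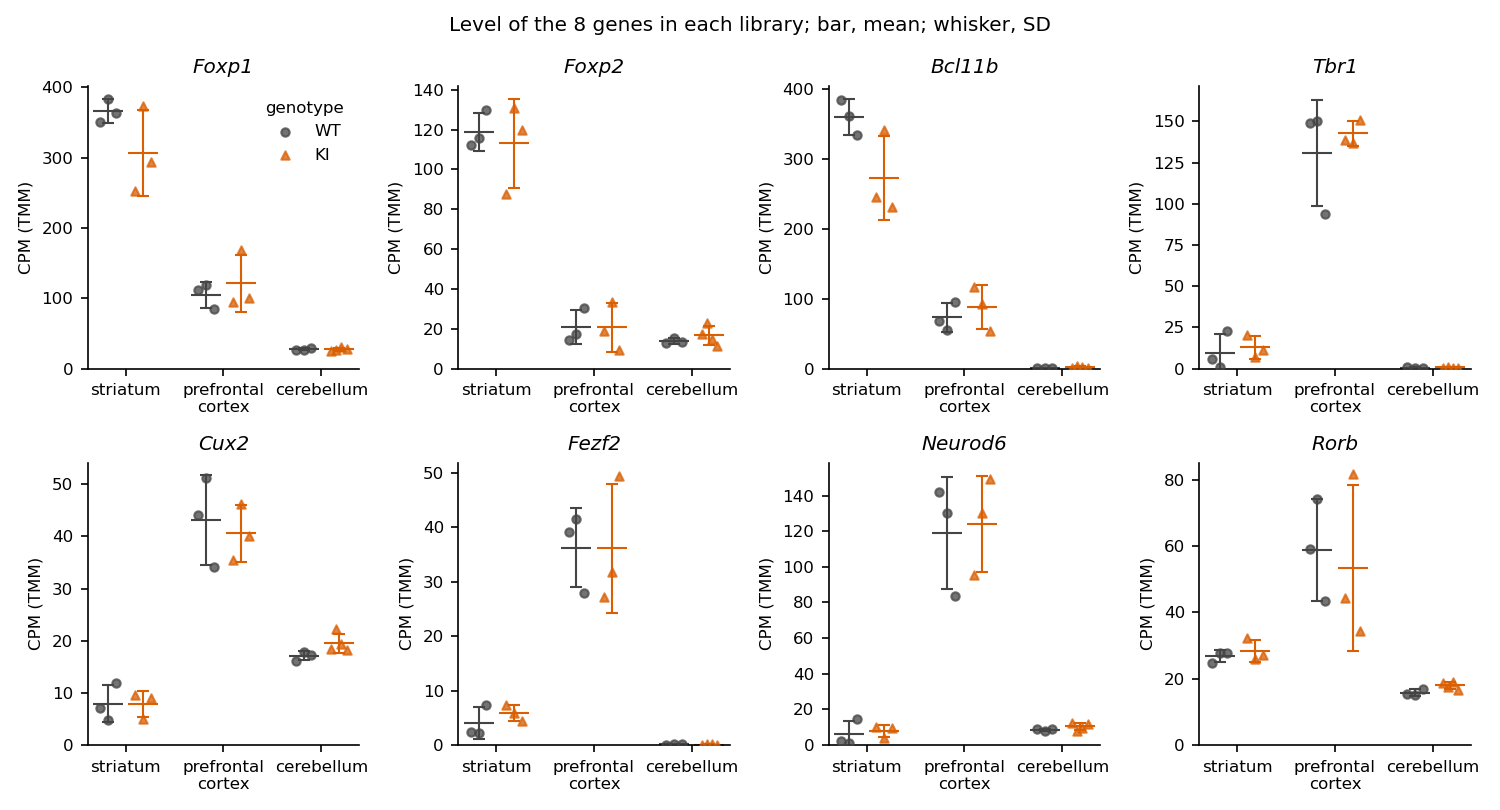
Level of each of the 8 genes in CPM after TMM scaling, on linear axes from 0, in the striatum, prefrontal cortex and cerebellum of WT (grey circles) and KI (orange triangles) mice; points are libraries, horizontal bars means and whiskers the SD. In each panel the WT and KI libraries of a region overlap, except *Cux2* in cerebellum, and the largest distances are between regions.

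Between KI and WT striatum none of the 8 genes was called (edgeR, adjusted p threshold 0.05), where 0.582% of all tested genes were. None reached an unadjusted p of 0.05 and DESeq2 called 0. Of the 8 genes 4 had positive and 4 negative log2 fold changes, with a median of 0.04 against -0.01 for all tested genes. In none of the 8 did the KI and WT libraries lie apart, against 14.1% of all tested genes.

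*Bcl11b* had the largest decrease in the estimates of the striatum. Its KI libraries were at 245, 341 and 231 CPM and its WT libraries at 383, 361 and 333 CPM. Libraries 1 and 3 of the KI mice lay below every WT library and KI library 2 lay within the WT range. The log2 fold change was -0.40 (SE 0.271, 95% interval -0.97 to 0.17, edgeR adjusted p = 0.776).

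*Foxp1* had 253, 374 and 294 CPM in KI striatum, against 351, 384 and 364 in WT. The same 2 KI libraries were below all WT libraries and KI library 2 was among them, with a log2 fold change of -0.26 (SE 0.182, 95% interval -0.64 to 0.13, edgeR adjusted p = 0.789). *Foxp2* had 87.8, 131 and 120 CPM in KI and 112, 116 and 130 CPM in WT striatum. Its groups overlapped throughout, and the log2 fold change was -0.08 (SE 0.331, 95% interval -0.78 to 0.62, edgeR adjusted p = 0.988).

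The markers of striatal projection neurons were lower as a sum, though not each of them, in every KI library. Their summed level was 5880, 8420 and 6560 CPM in KI striatum and 12300, 12500 and 10900 in WT, with no overlap. Of the 11 genes 10 had a negative log2 fold change, although 0 passed the test, with 2 at an unadjusted p under 0.05 and 1 called by DESeq2. Of all 16841 tested genes, 8666 had a negative log2 fold change, 1368 an unadjusted p under 0.05 and 214 a DESeq2 call. The nearest of the 11 to the threshold were *Pde10a*, a phosphodiesterase of these neurons, at -1.02 (SE 0.229, edgeR adjusted p = 0.0542), and *Penk*, the enkephalin precursor, at -1.24 (SE 0.482, adjusted p = 0.452). KI library 2, with the highest *Foxp1*, *Foxp2* and *Bcl11b* of the KI group, also had its highest marker sum. It had the lowest summed level of 9 glial genes, at 8580 CPM against 17900 and 16600 in KI libraries 1 and 3 and 11200 to 15200 in WT striatum. The sum of 8 granule and Purkinje cell genes was also lower in KI striatum, at 266 to 332 CPM against 372 to 474 in WT, with 0 of the 8 called by edgeR, 3 at an unadjusted p under 0.05 and 1 called by DESeq2. The part of these marker levels in the results on the 3 factors was not tested. Set against *Drd1*, the dopamine receptor of direct-pathway neurons, which was picked after its values were seen, *Foxp1* stood at 913, 921 and 911 CPM per 1000 CPM of *Drd1* in KI and 740, 691 and 643 in WT striatum. *Foxp2* stood at 317, 323 and 373 against 237, 208 and 230, and *Bcl11b* at 884, 840 and 717 against 808, 649 and 587. The *Foxp1* and *Foxp2* ratios did not overlap between genotypes while the *Bcl11b* ratios did; these ratios were not tested.

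The cortical genes had positive or near-zero estimates in KI striatum, with wide intervals for *Neurod6*, *Tbr1* and *Fezf2*. *Neurod6* had 10.0, 3.88 and 9.32 CPM in KI and 2.07, 1.41 and 14.7 CPM in WT striatum, *Tbr1* 20.6, 6.89 and 11.4 CPM in KI and 5.81, 0.669 and 22.6 in WT, and *Fezf2* 7.43, 5.79 and 4.43 CPM in KI and 2.47, 2.16 and 7.42 in WT. In *Neurod6* and *Tbr1* the highest of all 6 libraries was WT library 3, and all 3 KI libraries lay above the other 2 WT libraries. For *Fezf2* that library was level with KI library 1. The log2 fold changes were 0.38 for *Neurod6* (95% interval -0.82 to 1.58), 0.44 for *Tbr1* (-0.87 to 1.74) and 0.56 for *Fezf2* (-0.29 to 1.41), with edgeR adjusted p of 0.937, 0.933 and 0.793. Without WT library 3, *Neurod6* was called higher in KI striatum at 2.15 (SE 0.418, edgeR adjusted p = 0.0362), so that 1 of the 8 passed, while *Tbr1* at 1.97 (adjusted p = 0.197) and *Fezf2* at 1.34 (adjusted p = 0.15) did not.

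*Slc17a7*, the vesicular glutamate transporter of cortical neurons, moved with these values and was picked after they were seen. It was at 110, 49.0 and 96.1 CPM in KI and 23.3, 8.40 and 171 CPM in WT striatum, in the same order of libraries as *Neurod6*. Per 1000 CPM of *Slc17a7*, *Neurod6* stood at 91.1, 79.2 and 97.0 in KI and 88.8, 168 and 85.6 in WT striatum, which overlapped, and at 63.0 to 124 in the 6 prefrontal cortex libraries. *Tbr1* stood at 188, 141 and 118 in KI and 249, 79.6 and 132 in WT striatum, against 92.1 to 126 in prefrontal cortex. *Fezf2* stood at 67.7, 118 and 46.1 in KI and 106, 257 and 43.3 in WT striatum, all above its 17.9 to 41.3 in prefrontal cortex. The ratios of *Neurod6* and *Tbr1* thus overlapped between the regions and those of *Fezf2* did not. *Cux2* and *Rorb* ratios did not overlap either. Over both genotypes, *Cux2* stood at 68.9 to 575 in striatum and 23.5 to 42.2 in prefrontal cortex, and *Rorb* at 162 to 3310 and 28.6 to 61.1. The summed level of all 8 cortical glutamatergic markers was 365 to 400 CPM in KI and 232 to 485 CPM in WT striatum, with 0 of the 8 at 0 counts in a whole group. Whether cortical tissue in the striatal dissections carried the *Neurod6*, *Tbr1* and *Fezf2* values was not tested.

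*Cux2* had 9.53, 4.98 and 8.99 CPM in KI and 7.08, 4.83 and 11.8 CPM in WT striatum. *Rorb* had 32.2, 25.9 and 27.3 CPM in KI and 24.8, 27.8 and 27.8 in WT. Both overlapped between genotypes. The log2 fold changes were -0.01 for *Cux2* (95% interval -0.57 to 0.56) and 0.09 for *Rorb* (-0.41 to 0.59), with edgeR adjusted p of 0.999 and 0.976.

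**Figure D3:**
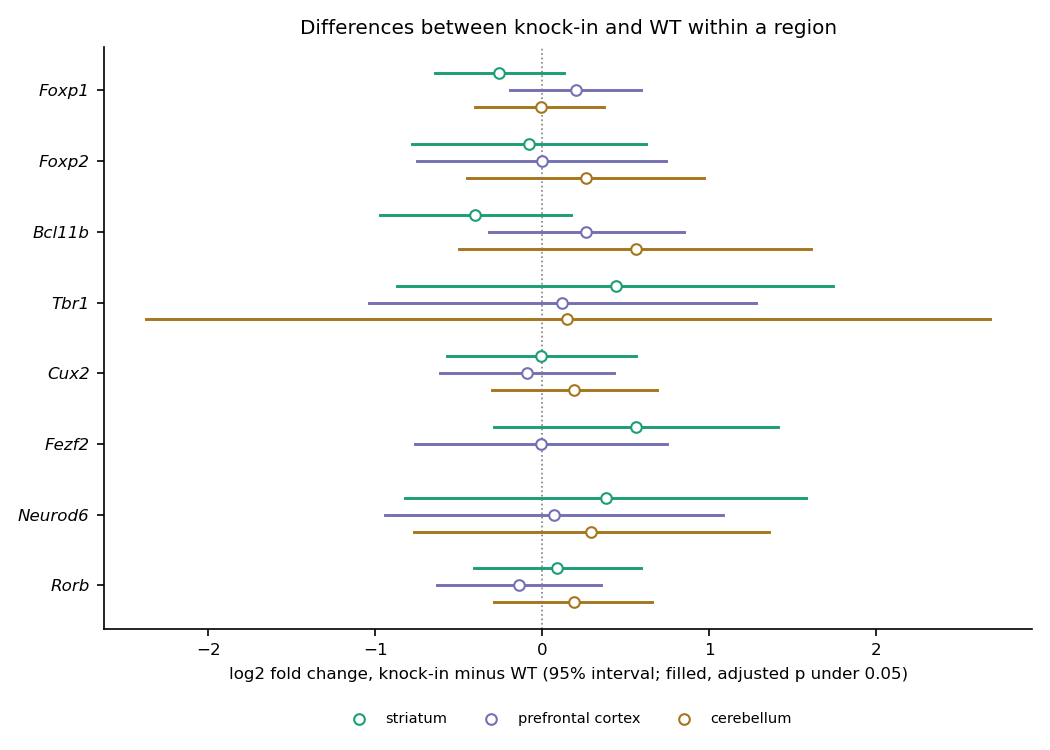
Log2 fold changes of KI over WT for the 8 genes in the striatum, prefrontal cortex and cerebellum, with 95% intervals from the edgeR fit; open points did not pass adjusted p 0.05 and *Fezf2* in cerebellum is left out at 0 to 2 counts a library. No point is filled and all intervals include 0, with narrow intervals for *Foxp1* and *Rorb* and wide ones for *Tbr1* and *Neurod6*.

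In the prefrontal cortex none of the 8 genes was called between KI and WT either (edgeR), where 0.107% of all tested genes were; 0 had an unadjusted p under 0.05 and DESeq2 called 0. The median log2 fold change was 0.03 against 0.00 for all tested genes, and KI and WT libraries overlapped in all 8, while they lay apart in 8.69% of tested genes. The cortical factors were close in both genotypes. *Neurod6* was at 95.4, 130 and 149 CPM in KI against 142, 130 and 83.4 in WT, and *Tbr1* at 139, 137 and 151 CPM in KI against 149, 150 and 93.6 in WT. Their log2 fold changes were 0.07 (95% interval -0.94 to 1.08) and 0.12 (-1.04 to 1.28), with edgeR adjusted p of 0.999 for each. *Fezf2* at 27.1, 31.8 and 49.4 CPM, *Cux2* at 35.5, 46.3 and 40.0 CPM and *Rorb* at 44.5, 81.9 and 34.3 CPM in KI libraries also overlapped the WT libraries, at -0.01 (-0.76 to 0.75), -0.09 (-0.61 to 0.43) and -0.14 (-0.63 to 0.35). In each of the 5 cortical genes the lowest WT value was that of library 3, the library with olfactory bulb genes.

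The 3 striatal factors also varied between single libraries of the prefrontal cortex. *Foxp2* was at 18.9, 33.6 and 9.19 CPM in KI and 14.3, 17.4 and 30.5 CPM in WT, *Bcl11b* at 116, 92.7 and 53.6 CPM in KI and 68.5, 55.6 and 95.3 in WT, and *Foxp1* at 94.8, 168 and 101 CPM in KI and 112, 119 and 84.6 in WT. The log2 fold changes were -0.00 for *Foxp2* (95% interval -0.75 to 0.74), 0.26 for *Bcl11b* (-0.32 to 0.85) and 0.20 for *Foxp1* (-0.19 to 0.59), with edgeR adjusted p of 1.00, 0.964 and 0.936. The summed striatal markers were at 817, 1280 and 270 CPM in KI and 450, 372 and 973 CPM in WT. KI library 2 had the highest marker sum and the highest *Foxp1* and *Foxp2*, and KI library 3 the lowest marker sum, *Foxp2* and *Bcl11b* of the 6. WT library 3, which held the olfactory bulb genes, also had the highest *Foxp2* and *Bcl11b* of the WT group. The part of striatal or olfactory bulb tissue in these values was not tested. Without WT library 3 the log2 fold change was 0.39 for *Foxp2*, 0.50 for *Bcl11b*, 0.07 for *Foxp1*, -0.07 for *Tbr1* and -0.13 for *Neurod6*, and still none of the 8 was called.

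**Figure D4:**
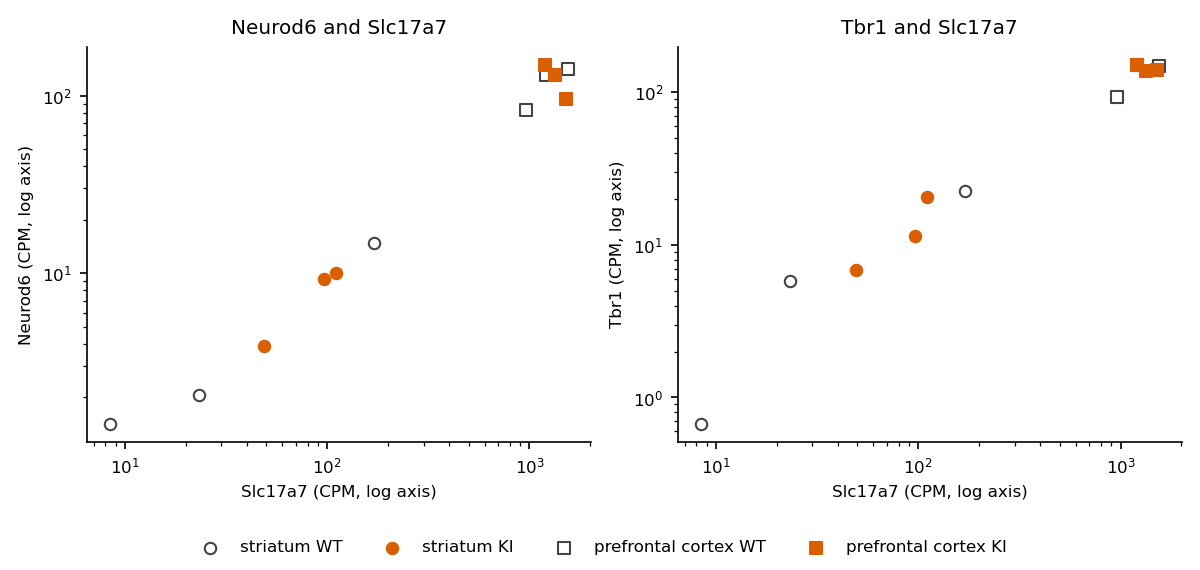
Levels in CPM on log axes of *Neurod6* and *Tbr1* against *Slc17a7*, a marker of cortical glutamatergic neurons, in the 12 striatal (circles) and prefrontal cortex (squares) libraries, open for WT and filled for KI. Within the striatum, *Neurod6* runs from 1.41 to 14.7 CPM as *Slc17a7* runs from 8.40 to 171 CPM; the points share library, depth and region.

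In the cerebellum, where the 8 genes were low, 0 were called between KI and WT (edgeR), against 0.831% of all tested genes, with 0 at an unadjusted p under 0.05 and 0 by DESeq2. *Cux2* was the only gene of the 8 whose libraries lay apart, at 18.4, 22.2, 19.3 and 18.3 CPM in KI and 16.1, 17.8 and 17.3 CPM in WT, as they did in 12.3% of tested genes. Its log2 fold change of 0.19 (SE 0.236, 95% interval -0.30 to 0.69) was small beside its error (edgeR adjusted p = 0.866). *Bcl11b* was at 1.24, 3.55, 1.51 and 1.03 CPM in KI and 1.09, 1.44 and 1.21 in WT, and its estimate of 0.56 (95% interval -0.50 to 1.61) fell to 0.02 without KI library 2, the library with the high *Tcf7l2*. *Foxp2* was at 17.2, 23.1, 14.6 and 11.4 CPM in KI and 12.7, 15.5 and 13.3 CPM in WT, also highest in that library, at 0.26 (-0.45 to 0.97). *Foxp1*, *Neurod6* and *Rorb* were at -0.01, 0.29 and 0.19, and *Tbr1* with 5 to 22 counts in a library at 0.15 (-2.37 to 2.68).

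Tests of the difference in the KI effect between regions called none of the 8 genes (edgeR), for striatum against prefrontal cortex, cerebellum against striatum and cerebellum against prefrontal cortex, where 0, 2 and 3 of all 16841 tested genes were called (0, 0.0119 and 0.0178%). For striatum minus prefrontal cortex 743 of all tested genes had an unadjusted p under 0.05, with 0 of the 8 among them, and DESeq2 called 12 genes and 0 of the 8. *Bcl11b* was at -0.66 (95% interval -1.48 to 0.16) for striatum minus prefrontal cortex and 0.96 (-0.24 to 2.16) for cerebellum minus striatum. *Foxp1* was at -0.46 (-1.01 to 0.09) and *Fezf2* at 0.57 (-0.56 to 1.70) for striatum minus prefrontal cortex.

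The other genes of the same roles were likewise not called in KI mice. In striatum 0 of 18 other striatal factors, 0 of 18 cortical factors, 0 of 12 targets and partners, 0 of 15 layer genes, 0 of 15 cerebellar factors and 0 of 9 tested paralogs passed the edgeR test, with 0, 2, 0, 2, 1 and 0 at an unadjusted p under 0.05, as were 1368 of all 16841 tested genes, and DESeq2 called 1 layer gene. The medians were -0.11 for striatal factors and 0.03 for cortical factors. *Meis2*, a homeodomain factor of striatal neurons, was lowest in p among the striatal factors at -0.65 (SE 0.323, edgeR adjusted p = 0.631), and *Bhlhe22*, a cortical helix-loop-helix factor, among the cortical ones at 1.09 (SE 0.452, adjusted p = 0.507). In prefrontal cortex 0 genes of the same 6 lists passed the edgeR test, with 5, 1, 1, 1, 2 and 2 at an unadjusted p under 0.05, as were 998 of all tested genes, and 1 paralog called by DESeq2. The 5 striatal factors included *Sp8* and *Dlx1*, which were at 14.8 and 86.9 CPM in WT library 3, the library with olfactory bulb genes, and at most 1.15 and 26.5 CPM in the other 5 libraries. The smallest p among paralogs was that of *Eomes*, a T-box relative of *Tbr1* made by olfactory bulb neurons, at 30.0 CPM in WT library 3 and at most 0.407 in the other 5 libraries, followed by *Cux1*, at 78.1 CPM in KI and 101 in WT (-0.37, SE 0.11, edgeR adjusted p = 0.512). In cerebellum the 6 lists gave 0 called genes by edgeR and by DESeq2, with 1, 2, 2, 2, 0 and 1 at an unadjusted p under 0.05, as were 1705 of all tested genes.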

How the data were processed

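RNA from striatum, prefrontal cortex and cerebellum of SCA17 knock-in and wild-type mice was made into libraries with SMART-Seq v4 and Nextera XT. Per the labels and the submitters' processing notes, the authors used bcl2fastq 2.17.1.14, STAR 2.5.2b, HTSeq, DESeq2 1.10.1 and GRCm38.p3, and the paper's methods also name Cufflinks and Cuffdiff. The strand setting of the counting is not given in the sources used here. The authors deposited whole-number read counts per gene and a second table of normalized signal, the counts divided by 1 size factor per library, which was used only as an alternative scale for levels.

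Counts were filtered with filterByExpr, scaled by TMM and fitted with edgeR 4.0.16 in R 4.3.3 (limma 3.58.1), with 1 mean for each of 6 groups, 13 degrees of freedom left for the spread, and an overall biological coefficient of variation between libraries of 0.191. The quasi-likelihood test was two-sided, with Benjamini-Hochberg adjustment over 16841 genes at 0.05, and a prior count of 2 was used for log2 CPM. The script was tested on simulated data. Library totals had a median of 15082703 counts, and the lowest genes are limited by counting error.

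The members and gene lists were chosen with earlier results of these data known. Beyond the 8 genes and *Tbp*, the text names at most 4 called genes of a list in a comparison with the smallest adjusted p, or at most 2 with the smallest p where none was called, the 3 nearest genes by pattern, and paralogs; exceptions are said to be so, and some genes under this rule are not reported here. Deviations from group means correlated at 0.23 to 0.37 in 6 pairs of striatal and prefrontal cortex libraries of the same genotype and number, so these numbers were used to pair libraries in alternative fits. The reported fit had no such block and treated the libraries of these regions as independent. Correlations ran from -0.10 to 0.16 in 12 pairs with the cerebellum and from -0.25 to 0.17 in 9 pairs of KI with WT. Alternatives were DESeq2 1.42.0, its size factors, other filters, only the groups compared, a sex covariate, replicate blocks and each library left out.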

Additional observations from a re-analysis of the deposited data

Results flagged for a closer look

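*Crym*, which encodes a thyroid hormone-binding protein and is among the context genes of the striatum and cortex, stood far from the others in 1 library of the KI cerebellum, at 16.7 CPM in library 2 against 0.113, 0.280 and 0.363 CPM in the other 3. Of 11 genes examined in the 4 libraries of this group with Dixon's test for a single distant library, the 8 genes, *Tbp*, *Crym* and *Tcf7l2*, it was the only one past the limit. Chance gives about 1 in 20 for a gene picked without its values, but *Crym* and *Tcf7l2* were picked after their values in this library were seen, so for *Crym* the test restates that observation. The same library had *Tcf7l2* at 40.4 CPM, against 8.34 to 13.9 in the other cerebellar libraries, and the highest *Bcl11b* of the group at 3.55 CPM. The part of tissue from outside the cerebellum in these values was not tested.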

How the results depend on the processing

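Outside leave-one-out, the number of the 8 genes called was the same under every alternative run, in all 9 comparisons. Over all tested genes, DESeq2 called 214 in KI striatum, 52 in prefrontal cortex and 336 in cerebellum, and 12, 50 and 32 for the differences striatum minus prefrontal cortex, cerebellum minus striatum and cerebellum minus prefrontal cortex. With only the groups compared the counts were 46 in striatum, 0 in prefrontal cortex and 1 for cerebellum minus striatum, and with a sex covariate 1 for the last. Without the 4 libraries that stood apart, chosen after seeing the data, they were 64 in striatum, 75 in cerebellum and 1 for cerebellum minus prefrontal cortex. The cause of these shifts was not tested. Signs turned only in estimates near 0 or with wide intervals. *Cux2* in KI striatum was 0.01 without those 4 libraries and with only the groups compared, 0.02 with a block within regions, and 0.00 with no filter or a sex covariate. Without the 4 libraries, *Foxp2*, *Tbr1* and *Neurod6* in KI prefrontal cortex were 0.38, -0.08 and -0.14, *Foxp2* and *Bcl11b* in KI cerebellum -0.01 and -0.23, and the differences 0.15 for *Neurod6* (cerebellum minus striatum), -0.38 for *Foxp2* and -0.72 for *Bcl11b* (cerebellum minus prefrontal cortex). *Fezf2* in KI prefrontal cortex was 0.04 with a sex covariate.

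Pairing libraries by number as a block across regions kept 8, 7 and 7 calls among the 8 genes in the 3 WT comparisons. *Fezf2* and *Tbr1* are counted against the cerebellum here. A block across striatum and prefrontal cortex only, added after seeing the data, kept 8. The block across regions joined different mice at least for WT libraries 1 and 3 of the cerebellum. Their log2 ratio of *Xist* to Y-linked counts, high in females and low in males, was 8.65 and -9.56. In striatal WT libraries 1 and 3 it was -7.49 and 10.04. KI effects within a region could not be fitted with these blocks, since each block holds 1 genotype. The block across regions gave 1 gene for cerebellum minus striatum and 0.08 for *Fezf2* in cerebellum minus prefrontal cortex. A replicate block within regions, where the numbers pair no mice, called 9 genes in KI prefrontal cortex, 8 for cerebellum minus striatum and 1 for cerebellum minus prefrontal cortex, with *Fezf2* there at 0.02.

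With each library left out in turn, the genes called over all tested ran from 0 to 1 for striatum minus prefrontal cortex, 1 to 4 for cerebellum minus prefrontal cortex, 1 to 6 for cerebellum minus striatum, 36 to 121 in KI striatum, 5 to 16 in KI prefrontal cortex and 73 to 151 in KI cerebellum. Of the 8 genes, 0 to 1 passed in KI striatum, with *Neurod6* called without striatal WT library 3. Estimates that changed sign in KI striatum were *Cux2* from -0.26 to 0.40, *Foxp2* from -0.20 to 0.07, *Neurod6* from -0.09 to 2.15, *Rorb* from -0.01 to 0.15 and *Tbr1* from -0.11 to 1.97. Estimates that changed sign in KI prefrontal cortex were *Cux2* from -0.23 to 0.05, *Fezf2* from -0.30 to 0.16, *Foxp1* from -0.12 to 0.36, *Foxp2* from -0.55 to 0.39, *Neurod6* from -0.13 to 0.23, *Rorb* from -0.59 to 0.10 and *Tbr1* from -0.07 to 0.23. Estimates that changed sign in KI cerebellum were *Fezf2* from -0.95 to 0.12, *Foxp1* from -0.07 to 0.04 and *Tbr1* from -0.32 to 0.61. Estimates that changed sign for striatum minus prefrontal cortex were *Cux2* from -0.17 to 0.49, *Foxp2* from -0.47 to 0.47, *Neurod6* from -0.15 to 2.08, *Rorb* from -0.01 to 0.68 and *Tbr1* from -0.23 to 1.85. Estimates that changed sign for cerebellum minus striatum were *Cux2* from -0.20 to 0.46, *Neurod6* from -1.85 to 0.38 and *Tbr1* from -1.82 to 0.27. Estimates that changed sign for cerebellum minus prefrontal cortex were *Bcl11b* from -0.25 to 0.56, *Fezf2* from -0.94 to 0.12, *Foxp1* from -0.37 to 0.10, *Foxp2* from -0.12 to 0.81 and *Tbr1* from -0.44 to 0.49.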
